A study of Rattus norvegicus with 36 samples.

Results

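The genes described here are 42 genes of the mature sarcomere and of muscle energy metabolism, among 14217 genes measured with 1 probe set each. They were chosen by name, by what their proteins do, and not by a threshold on measured values. The choice was made with earlier results of these data known, so shares of members called are descriptions. A probe set was taken where its annotation held a single gene symbol equal to that of a member, and of several probe sets of a gene the one of median mean intensity stood for it. In this way 41 members were found under their own symbol and Mylpf under its newer symbol Myl11, so all 42 had values in every array. The members fall into 6 role classes, with 5 genes of the thin filament, 9 of the thick filament and M band, 13 of the Z disc, 6 of energy metabolism, 7 of the muscle membrane and its calcium handling, and 2 ubiquitin ligases of muscle atrophy.

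Striated muscle contracts by sliding of thin actin filaments, anchored at the Z disc, along thick myosin filaments, which are tied together at the M band. Fast and slow fibers build these structures from different isoforms, and ATP for contraction is supplied through creatine kinase, glycogen breakdown, glycolysis and oxygen held by myoglobin. Beneath the vocal fold (VF) mucosa lies the thyroarytenoid muscle, and injured skeletal muscle is rebuilt by satellite cells, whose new fibers carry embryonic isoforms before the adult ones.

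The study asked how gene expression in rat VF mucosa changes after injury. All animals were male Fischer 344 rats aged 120 days at the start, post-injury (PI) rats had both mucosae surgically stripped, and controls were age-matched naive rats. Mucosa was microdissected at 3, 14 or 60 days, at ages of 123, 134 and 180 days, and the bilateral mucosae of 4 rats were pooled for each array. There were 5 PI and 3 control arrays at 3 days, 5 and 3 at 14 days, and 5 and 2 at 60 days, 23 in all from 92 rats, and another 13 arrays held cultured VF fibroblasts. At 60 days the stated methods name 4 PI arrays and 3 controls, so an array labelled PI may be a control. The array labels were followed here, and every 60-day value rests on them. The controls carried no sham procedure, so an effect of injury here is that of the whole intervention. Levels are log2 signals after robust multi-array analysis (RMA), effects of injury are differences of log2 level between PI and control, and a gene was called at a limma adjusted p under 0.05 over all 14217 genes. Precision is limited by the small number of arrays.

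The tissue held abundant signal of muscle in every group. The mean control level exceeded 13 log2 for 8 of the 42 members, as for 177 of all 14217 genes, on a scale whose highest level was 14.74. Skeletal Acta1, the main actin of the thin filament, lay between 13.79 and 14.40 in all 23 arrays. Whether differences between arrays were compressed so near the top of the scale was not tested. Heart markers gave low signals in 3-day controls, with cardiac troponin I (Tnni3) at 6.23 ± 0.09 (SD, n = 3) and Nppa, the atrial natriuretic peptide, at 6.04 ± 0.08 (SD, n = 3), while Myl4, an atrial light chain that embryonic skeletal muscle shares, was brighter. In bulk tissue, fewer muscle fibers in a piece and less RNA of a gene per fiber cannot be told apart.

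Within groups the members moved together from array to array. In 3-day control replicate 2, 41 of the 42 members were below their group mean, with a median deviation of -0.62 log2, and in 3-day PI replicate 4 all 42 were below it, with a median of -0.44. In 3-day PI replicate 1, 40 of 42 were above, with a median of 0.46. At 14 days the PI arrays split likewise, replicates 3 and 5 lying below with medians of -0.22 and -0.24. Over all genes, 60-day PI replicate 4, 3-day PI replicate 5 and 14-day PI replicate 4 deviated most from their groups, with SDs of 0.45, 0.34 and 0.23. Results at 3 days are also given without control replicate 2 and without PI replicate 4, and members whose call changed without the 3 arrays of largest deviation are named.

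**Figure D1:**
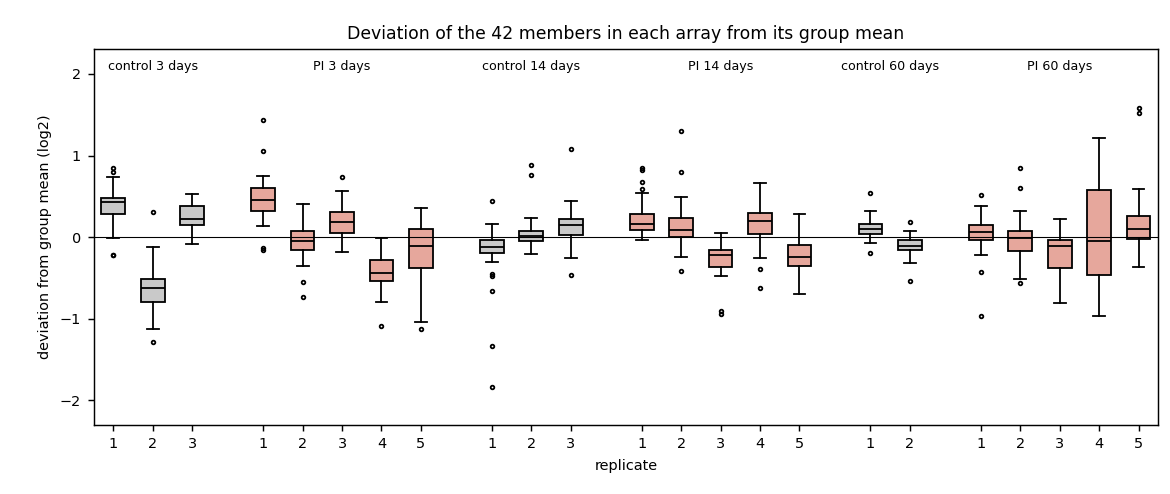
Box plots of the deviation (log2) of the 42 members from their group mean, 1 box for each of the 23 mucosa arrays, control in gray and PI in red, with the median, quartiles, whiskers to 1.5 times the quartile range and single points beyond. Nearly the whole box of 3-day control replicate 2 lies below 0 (41 of 42 members), and 60-day PI replicate 4 has the widest box.

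At 3 days PI, 16 of the 42 members were lower than in controls and 7 were higher, and 19 were not called. The fallers included 5 of 6 energy genes, 6 of 9 thick filament and M band genes and 4 of 13 Z disc genes. The risers were Myom2, Csrp3, Ankrd2, Des, Ampd1, Cacng1 and Atp1b4. Over all genes, 12% were called lower and 14.5% higher, against 38.1% and 16.7% of the members, so the share of risers was close to that of all genes and the share of fallers was above it. The median effect of the members was -0.28, against 0.01 for all genes, with a range from -2.72 for Myoz3 to 2.57 for Atp1b4. Without control replicate 2, which had the low muscle levels, 20 members fell and 4 rose, and the median was -0.57. Ampd1, Csrp3 and Myom2 were then not called, and Ldb3, Sgca, Smpx and Trim63 were called lower. Without control replicate 1 or 3, 11 fell and 7 rose. Without PI replicate 4, 13 fell and 7 rose, and Myl1, Myl2 and Ttn were not called. The PI and control arrays did not overlap for 12 members (28.6%), against 31.2% of all genes. An alternative lognormal-normal model, the kind the study used, did not call the fallers Ckm, Pygm, Pgam2, Eno3, Myl1, Mybpc1 and Ttn. It also did not call the risers Myom2, Des and Ampd1.

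**Figure D2:**
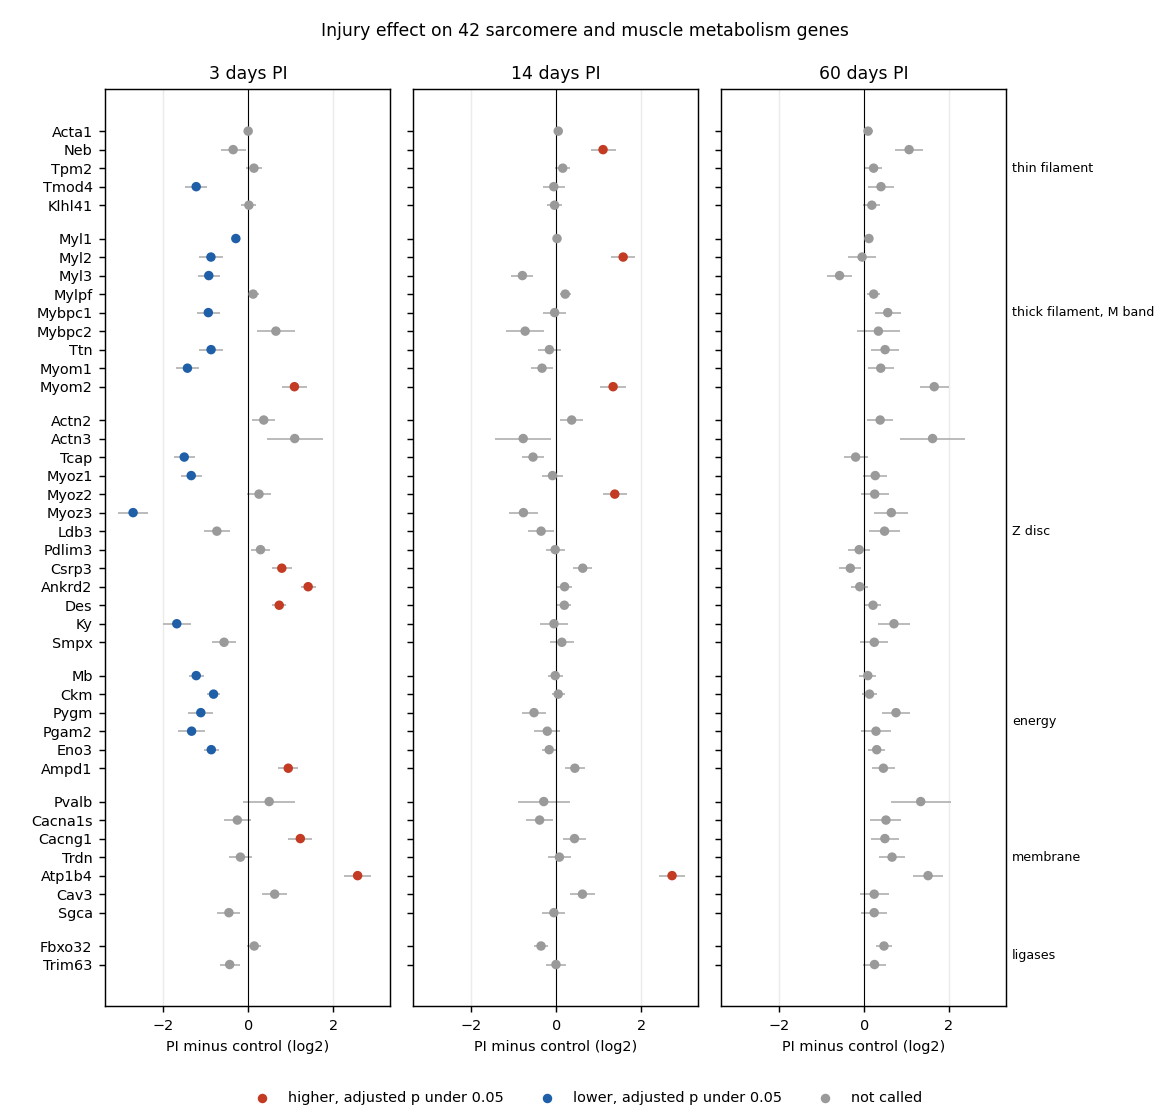
Injury effect (PI minus control, log2) on the 42 members after 3, 14 and 60 days, in order of role, with bars for the SE; red points were called higher, blue points lower and gray points not called at an adjusted p under 0.05. At 3 days 16 points are blue and 7 red, at 14 days 5 are red, and at 60 days all are gray while 36 of 42 lie right of 0.

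Among the 5 thin filament genes, 1 fell at 3 days and none rose. Tmod4, a tropomodulin that caps the slow-growing end of the thin filament, was at 11.47, 10.14 and 10.91 in the controls and at 10.22, 9.53, 9.81, 9.15 and 9.34 in the PI arrays. The top PI array exceeded the lowest control array, which was replicate 2, so the groups overlapped. Tmod4 fell by 1.23 log2 (2.35-fold lower, SE 0.26, adjusted p = 0.00121). The other members were Acta1 (effect -0.01), Neb, the giant ruler of the thin filament (-0.36), Tpm2, a tropomyosin (0.13), and Klhl41, a partner of nebulin (0.01), with adjusted p between 0.41 and 0.976. A second probe set of Tpm2 gave 1.01 at 3 days (adjusted p over all probe sets of 0.000381), so the probe sets of this gene disagreed.

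Of the 9 thick filament and M band genes, 6 fell and 1 rose at 3 days. Myom1, a myomesin that cross-links myosin at the M band, was at 12.01, 10.78 and 11.96 in controls and at 10.50, 10.02, 10.39, 9.65 and 10.17 in PI arrays. All 5 PI arrays lay below all 3 controls. Myom1 fell by 1.44 log2 (2.71-fold lower, SE 0.27, adjusted p = 0.000387). Its paralog Myom2, the M protein, was at 9.76, 8.38 and 9.87 in controls and at 10.78, 10.39, 10.58, 10.02 and 10.33 in PI arrays, again without overlap but in the opposite direction. Myom2 rose 2.12-fold (log2 1.08, SE 0.30, adjusted p = 0.0105), although without control replicate 2 the effect was 0.61 (adjusted p = 0.119). Titin (Ttn), the elastic spring that spans from Z disc to M band, fell by 0.88, and the myosin light chains Myl1, Myl2 and Myl3 fell by 0.30, 0.88 and 0.93. Mylpf, the regulatory light chain of fast fibers, was not called, with an effect of 0.11 (adjusted p = 0.588).

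The Z disc class had the largest changes in each direction but for Atp1b4. Myoz3, a calsarcin that links alpha-actinin to calcineurin signaling, was at 11.20, 9.96 and 11.17 in controls and at 8.62, 7.33, 8.61, 7.39 and 8.35 in PI arrays. The lowest control array was more than 1 log2 above the highest PI array. Myoz3 fell by 2.72 log2 (6.57-fold lower, SE 0.35, adjusted p = 5.87e-06) and fell under all 35 settings tried. Ky, a muscle protein that binds filamin, fell by 1.69, Tcap, the telethonin cap of titin, by 1.51 and Myoz1, the fast-fiber calsarcin, by 1.35. In the other direction Ankrd2, an ankyrin repeat protein that answers stretch, was at 5.59, 5.49 and 5.75 in controls and at 7.62, 7.08, 6.83, 6.49 and 7.06 in PI arrays. The groups lay far apart, and Ankrd2 rose 2.65-fold (log2 1.41, SE 0.18, adjusted p = 4.93e-06). Its control levels lay below those of all fibroblast cultures (5.845 to 6.39), so the fold is set against a weak signal. Csrp3, a LIM protein of the Z disc, rose by 0.79 log2, and desmin (Des), the intermediate filament around Z discs, rose by 0.73. The other 6 of the 13, namely Actn2, Actn3, Myoz2, Ldb3, Pdlim3 and Smpx, were not called, with effects between -0.74 for Ldb3 and 1.09 for Actn3. Without the 3 arrays that deviated most over all genes, Ldb3 was called lower (effect -0.83, adjusted p = 0.0409). Of the 6 Ldb3 probe sets, 3 fell at 3 days when tested among all probe sets.

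Of the 6 energy genes, 5 fell and 1 rose, though under the lognormal-normal model only Mb kept its call. Pgam2, the muscle phosphoglycerate mutase, was at 13.25, 12.05 and 13.04 in controls and at 12.19, 11.46, 12.004, 11.24 and 10.32 in PI arrays. Only control replicate 2 lay within the PI range. Pgam2 fell by 1.34 log2 (2.53-fold lower, SE 0.31, adjusted p = 0.00282). Myoglobin (Mb), the oxygen store, fell by 1.23 with no overlap, from 14.15, 13.50 and 14.01 to 13.12, 12.64, 13.05, 12.15 and 12.31 (adjusted p = 1.8e-05). Pygm, the muscle glycogen phosphorylase, fell by 1.12, Eno3, the muscle enolase, by 0.87 and Ckm, the muscle creatine kinase, by 0.82. Ampd1, the muscle AMP deaminase of the purine cycle, was the exception. It was at 10.47, 9.29 and 10.19 in controls and at 11.38, 10.93, 10.89, 10.39 and 11.03 in PI arrays, and only the lowest PI array lay within the control range. Ampd1 rose 1.92-fold (log2 0.94, SE 0.23, adjusted p = 0.00455). Without control replicate 2 its effect was 0.59 (adjusted p = 0.0544).

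Of the 7 membrane genes, 2 rose and none fell. Atp1b4, a muscle protein kin to the beta subunits of the sodium pump but found in the inner nuclear membrane, was at 5.55, 4.62 and 5.42 in controls and at 7.63, 7.96, 7.75, 7.66 and 7.85 in PI arrays. All PI arrays were more than 2 log2 above the highest control, and Atp1b4 rose 5.95-fold (log2 2.57, SE 0.31, adjusted p = 2.93e-06). Cacng1, the gamma subunit of the skeletal calcium channel, rose 2.34-fold (log2 1.22, SE 0.28, adjusted p = 0.00258). The channel pore Cacna1s, triadin (Trdn), caveolin 3 (Cav3), alpha-sarcoglycan (Sgca) and the calcium buffer parvalbumin (Pvalb) were not called, with effects of -0.26, -0.19, 0.62, -0.46 and 0.49. Cav3 was at 10.33, 9.34 and 10.12 in controls and at 11.01, 10.84, 10.83, 10.45 and 9.61 in PI arrays. Its lowest PI array was replicate 5, which deviated over all genes, and without that array Cav3 was called higher (effect 0.85, adjusted p = 0.02). Neither ubiquitin ligase of atrophy was called. Trim63 (MuRF1) was at 8.36, 7.30 and 8.02 in controls and at 8.06, 7.27, 7.64, 7.17 and 7.11 in PI arrays, an effect of -0.44 (adjusted p = 0.176), and Fbxo32 (atrogin 1) had an effect of 0.14 (adjusted p = 0.605).

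The 250 bases upstream of the annotated start are shown for the 2 members with the largest fall (Myoz3 and Ky) and the 2 with the largest rise (Atp1b4 and Ankrd2) at 3 days, to set the regulatory sequence beside opposite responses. They are RefSeq sequences of the GRCr8 assembly, 5′ to 3′ in the direction of the gene. Capitals mark E-boxes (CANNTG, the same on both strands), the motif that myogenic factors such as MyoD and myogenin bind. Myoz3 lies at chr18:56316583-56316832 (minus strand), Ky at chr8:111965612-111965861 (plus strand), Atp1b4 at chrX:121952727-121952976 (plus strand) and Ankrd2 at chr1:250796169-250796418 (plus strand).
Myoz3: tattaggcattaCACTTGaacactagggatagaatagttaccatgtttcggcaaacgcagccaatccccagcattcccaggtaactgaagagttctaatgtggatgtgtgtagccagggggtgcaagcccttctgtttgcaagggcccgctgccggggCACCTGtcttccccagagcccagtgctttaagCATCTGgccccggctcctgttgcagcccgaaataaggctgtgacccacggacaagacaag
Ky: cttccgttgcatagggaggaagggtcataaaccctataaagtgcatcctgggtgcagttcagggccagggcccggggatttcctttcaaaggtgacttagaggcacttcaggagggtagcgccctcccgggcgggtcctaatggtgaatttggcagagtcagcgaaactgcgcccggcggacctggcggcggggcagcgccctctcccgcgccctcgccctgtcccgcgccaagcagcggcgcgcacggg
Atp1b4: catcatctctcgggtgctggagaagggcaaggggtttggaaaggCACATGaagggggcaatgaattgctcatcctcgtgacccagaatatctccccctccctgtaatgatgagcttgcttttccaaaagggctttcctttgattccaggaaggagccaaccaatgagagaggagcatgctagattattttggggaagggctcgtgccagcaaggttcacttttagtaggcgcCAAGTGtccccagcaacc
Ankrd2: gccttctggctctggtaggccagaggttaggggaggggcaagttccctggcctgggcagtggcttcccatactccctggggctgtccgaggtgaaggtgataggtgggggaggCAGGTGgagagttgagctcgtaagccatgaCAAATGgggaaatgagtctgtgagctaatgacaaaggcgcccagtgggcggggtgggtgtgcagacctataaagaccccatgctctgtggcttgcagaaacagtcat
The Myoz3 window held 3 E-boxes, those of Atp1b4 and Ankrd2 held 2 each, and that of Ky held 0. The motif MCAT (CATTCC) occurred in the Myoz3 window, and TATAAA occurred in those of Ky and Ankrd2. Neither the MEF2 nor the CArG motif matched in these 4 windows.

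Upstream sequences were present for 35 of the 42 members. Each of these members counted once, by its first listed window. The windows set against them were all those listed, so a gene may recur among them. On either strand, an E-box occurred in 30 of the 35 (85.7%), against 65.5% of 33469 upstream windows of the same length, and a MEF2 motif, which marks many muscle genes, in 7 (20%) against 2.96%. MCAT occurred in 25.7% of members against 12.1%, TATAAA in 28.6% against 12.9% and CArG, the serum response element, in 8.57% against 1.5%. In 1 of the 7 members the MEF2 match overlapped TATAAA. Windows with an E-box were 13 of 14 members that fell, 4 of 4 that rose and 13 of 17 not called. Windows with a MEF2 match were 2, 1 and 4 of these, namely Ttn and Myoz1, then Ampd1, then Klhl41, Cav3, Smpx and Myoz2. These are counts of letters in a window, and binding was not measured.

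Other muscle genes gave the setting of these changes. Of 50 measured genes of a second list of mature muscle genes, 23 fell and 7 rose at 3 days. The shares over all genes were 12% and 14.5%. That list, like the members, was chosen with earlier results of these data known, so it is no independent support. Its largest changes were rises of the slow troponins Tnnc1 (24.3-fold, adjusted p = 1.22e-09) and Tnni1 (21.6-fold, adjusted p = 2.34e-10), and falls of Rpl3l, a muscle ribosomal protein (2.21 log2, adjusted p = 6.18e-05), and Slc2a4, the insulin-responsive glucose transporter (1.83 log2, adjusted p = 0.000222). All 4 measured embryonic sarcomere genes rose, with Myh3, the embryonic myosin heavy chain, 74.6-fold higher (adjusted p = 8.26e-14) and Tnnt2, Myl4 and Myh8 at 22.9-fold, 5.3-fold and 2.11-fold. Of 12 measured genes of atrophy and stress, 4 fell and 3 rose, among them Klf15, a glucocorticoid target (a fall of 1.19 log2), Cdkn1a, a cell cycle inhibitor (2.04-fold higher), Bnip3, a mitophagy receptor (a fall of 0.70), and Gadd45a, a stress sensor (1.56-fold higher).

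Markers of other cells were called as well. At 3 days 14.5% of all genes were called higher and 12% lower, and these lists are short. Counts near those shares are not read as changes of a cell type. All 4 measured satellite cell and myoblast markers rose at 3 days, among them myogenin (Myog) 10.6-fold and M-cadherin (Cdh15) 3.1-fold, and the log2 of their summed signal was between 8.41 and 9.07 in controls and between 11.41 and 12.38 in PI arrays. For 6 fibroblast markers, of which 4 rose (Col3a1 1.66-fold, Dcn not called at -0.14 log2), it was between 15.66 and 15.80 in controls and between 16.32 and 16.55 in PI arrays. Of 8 smooth muscle markers 1 rose and 3 fell (myosin light chain kinase, Mylk, by 0.86), with summed levels of 12.51 to 12.79 in controls and 12.31 to 12.56 in PI arrays. Of 4 endothelial markers 2 rose, and of 6 heart markers 2 rose, including Myl4. Among the other lists, 2 Schwann cell markers of 2 fell, and of 6 macrophage and 5 epithelial markers 1 each fell, with 1 and 2 higher. None of 4 cartilage, 4 fat and 2 thyroid markers was called. The part of these cells in the levels of the 42 members was not tested.

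**Figure D3:**
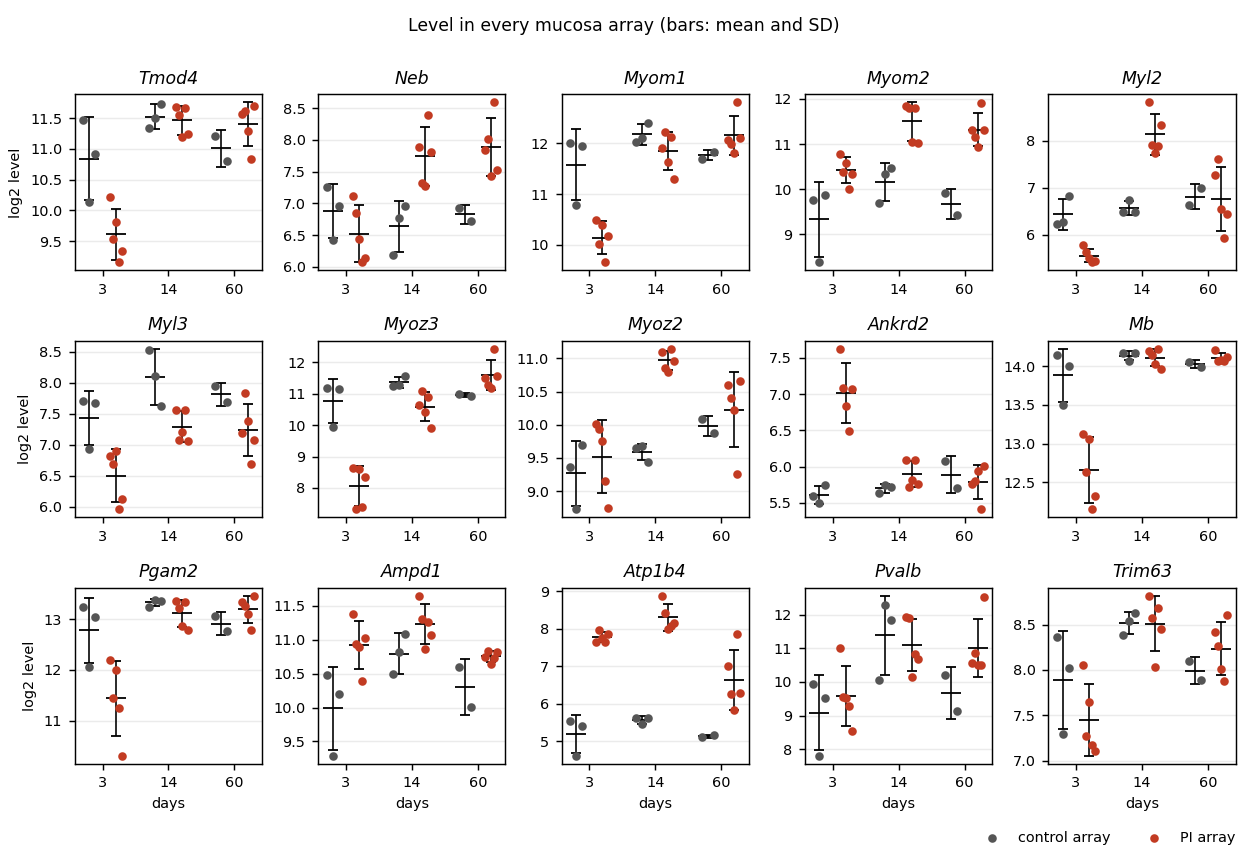
Log2 level of 15 members in every mucosa array at 3, 14 and 60 days (control gray, PI red; dashes and bars are mean and SD; each panel has its own y axis, not starting at 0). Myoz3, Mb and Myom1 are lower in the PI arrays at 3 days with no overlap, Ankrd2 is higher at 3 days, Myl2 and Myoz2 are higher at 14 days, and Atp1b4 is higher in all PI arrays at the 3 times.

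At 14 days PI, 5 members were higher than in controls and none was lower. Over all genes, 2.11% were called higher and 0.957% lower, against 11.9% and 0% of the members. In either direction, 10 of the 42 members passed at an unadjusted p under 0.05, against 1825 of all 14217 genes. The median effect of the members was -0.03. Without the 3 arrays that deviated most over all genes, 7 were called, with Csrp3 then higher (effect 0.62, adjusted p = 0.0433) and Myl3 lower (effect -0.87, adjusted p = 0.0446). The arrays did not overlap for 13 members (31%), 8 above and 5 below, against 14% of all genes. Myl3, Tcap, Myoz3, Pygm and Fbxo32 were the 5 with all PI arrays below controls, and none of them was called. Over the 16 members that had fallen at 3 days the median effect at 14 days was -0.13, and 13 of the 16 effects were negative.

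Atp1b4 again had the largest effect, with levels of 5.63, 5.46 and 5.63 in controls and of 8.88, 8.42, 7.98, 8.07 and 8.14 in PI arrays (6.62-fold higher, log2 2.73, SE 0.31, adjusted p = 3.7e-05). Myl2, the regulatory light chain of slow fibers and of the heart ventricle, was at 6.48, 6.75 and 6.48 in controls and at 8.82, 7.90, 7.75, 7.90 and 8.35 in PI arrays. It rose 2.98-fold (log2 1.57, SE 0.29, adjusted p = 0.00326), after having fallen at 3 days from 6.22, 6.28 and 6.82 to 5.78, 5.63, 5.50, 5.43 and 5.45. In the fibroblast cultures the probe set of Myl2 used here lay between 5.285 and 6.34, so its 3-day PI levels were weak signals. A second, dimmer probe set of Myl2 showed neither change, with effects of -0.23 at 3 days and -0.04 at 14 days.

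Myoz2, the slow-fiber calsarcin, was at 9.65, 9.68 and 9.45 in controls and at 11.09, 10.86, 10.80, 11.14 and 10.96 in PI arrays, and it rose 2.6-fold (log2 1.38, SE 0.29, adjusted p = 0.00986). Myom2 rose 2.53-fold (log2 1.34, SE 0.30, adjusted p = 0.0153), with an adjusted p of 0.125 without control replicate 1. Neb was at 6.19, 6.77 and 6.95 in controls and at 7.89, 7.33, 7.28, 8.40 and 7.80 in PI arrays (2.15-fold higher, log2 1.10, SE 0.29, adjusted p = 0.0437). The call of Neb was lost under 13 of 35 settings, and its other probe sets, 1 of them far brighter, gave effects of 0.11 and -0.03. In the class of energy genes no member was called, and the largest effect was that of Pygm, at 12.37, 12.49 and 12.88 in controls and at 12.30, 12.21, 12.09, 11.91 and 11.77 in PI arrays (effect -0.52, adjusted p = 0.514). For the ligases the largest was that of Fbxo32, at 6.62, 6.40 and 6.36 against 6.32, 6.22, 6.15, 5.71 and 6.12 (effect -0.36, adjusted p = 0.361).

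In the second list of mature muscle genes, chosen with earlier results of these data known, 5 rose and none fell at 14 days. The shares over all genes were 2.11% and 0.957%. Of the 5, 4 were slow-fiber genes, namely Tnni1 (6.92-fold), Tnnc1 (6.24-fold), the slow myosin heavy chain Myh7 (3.77-fold) and Tnnt1 (3.14-fold). Myl3, the essential light chain of slow fibers, differed from these. It was at 8.53, 8.12 and 7.63 in 14-day controls and at 7.56, 7.08, 7.21, 7.56 and 7.06 in PI arrays, with no overlap but no call (effect -0.80, adjusted p = 0.108), and it had fallen at 3 days.

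The injury effect at 14 days was tested against that at 3 days. It differed for 8 members, 7 of them with a higher effect at 14 days (Myl2, Myoz3, Ky, Neb, Myoz1, Mb and Ckm), and Ankrd2 with a lower one, against 7.9% of all genes called in either direction. The differences ran from -1.21 for Ankrd2 to 2.46 for Myl2. Without 3-day control replicate 2, 16 members differed, and without replicate 3, 3 did. Within PI mucosa alone, 29 members (69%) were higher at 14 than at 3 days and Ankrd2 was lower, against 15.8% of all genes higher and 18.3% lower. This comparison uses the same 3-day PI arrays as the injury effect at 3 days, so the calls of both are not independent. Markers of other cells moved between the same arrays. From 3 to 14 days in PI mucosa, 4 of 4 satellite cell and myoblast markers, 5 of 6 macrophage markers and 4 of 6 fibroblast markers fell, and 2 of 2 Schwann cell markers rose. The log2 of the summed satellite cell and myoblast signal was between 10.03 and 10.82 in 14-day PI arrays and between 8.99 and 9.05 in 14-day controls, and that of the fibroblast markers between 15.94 and 16.15 against 15.69 and 15.77. In the 14-day injury effect, 3 of 4 of the former and 3 of 6 of the latter markers were higher. The share of all genes called higher there was 2.11%. The part of these cells in the 14-day values was not tested. Between 3-, 14- and 60-day controls no member was called, against 0.0141% of all genes. At an unadjusted p under 0.05 there were 9 of the 42 members, against 944 of all 14217 genes.

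At 60 days PI, no member was called, against 0.0211% of all genes higher and 0.0281% lower. At an unadjusted p under 0.05 there were 7 of the 42 members, against 1276 of all 14217 genes. Of the 42 effects 36 were positive, with a median of 0.29 against -0.03 over all genes. The PI arrays did not overlap the 2 control arrays for 18 members (42.9%), 17 above and 1 below (Tcap), against 12.3% of all genes. Since the members moved together within arrays, these counts are not 42 separate observations. Myom2 was at 9.91 and 9.43 in controls and at 11.31, 11.15, 10.93, 11.91 and 11.30 in PI arrays, 3.14-fold higher without passing the test (log2 1.65, SE 0.35, adjusted p = 0.0722). Atp1b4 was at 5.11 and 5.17 in controls and at 7.0, 6.25, 5.84, 7.85 and 6.28 in PI arrays (log2 1.505, SE 0.36, adjusted p = 0.124). Without PI replicate 4 the effects were 1.502 for Myom2 and 1.20 for Atp1b4, each with an adjusted p of 0.0822. Other settings did call them. With controls of the 3 ages pooled, Myom2 and Atp1b4 were called higher (limma adjusted p = 0.000585 and 0.00177). Myom2 was also called without 3-day control replicate 1 or 2 (adjusted p = 0.0393 and 0.0177) and under the lognormal-normal model.

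Against the effect at 3 days, that at 60 days was higher for 14 members and lower for Ankrd2 and Csrp3, where 13.4% of all genes were called in either direction. The difference contains the 3-day effect, so it is not independent of the calls at 3 days. Myoz3 had the largest difference, 3.35 log2 (SE 0.53, adjusted p = 0.000232), with effects of -2.72, -0.77 and 0.64 at the successive times. Without 60-day control replicate 2, 7 members differed. From 14 to 60 days within PI mucosa, Myl2 fell by 1.38 log2 (adjusted p = 0.00206) and Atp1b4 by 1.66 (adjusted p = 0.000761), and no member rose, against 1.84% of all genes lower and 0.253% higher. Levels of Atp1b4 at 60 days were nevertheless above those of both controls in 5 of 5 PI arrays.

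Several members have fast and slow or otherwise alternative isoforms. The log2 difference of a pair within an array would not depend on muscle amount if both genes and signals scaled with it alike. Whether they did was not tested. Among 3-day controls, replicate 2, low in muscle, had the lowest Myom2 minus Myom1 (-2.40) and Myl3 minus Mylpf (-6.41). It had the highest Mybpc1 minus Mybpc2 (3.10) and Actn2 minus Actn3 (3.48). In Myoz2 minus Myoz1 it lay between the others (-2.83). The sign of such a difference between 2 probe sets has no meaning, and its change between arrays is read here with that limit. Myom2 minus Myom1 was -2.25, -2.40 and -2.09 in 3-day controls and 0.28, 0.37, 0.19, 0.36 and 0.16 in PI arrays. Control replicate 2, with its low muscle levels, was the lowest control here, at -2.40 against -2.25 and -2.09. The difference was -2.33, -1.76 and -1.95 against -0.08, -0.42, -0.59, -0.34 and -0.28 at 14 days, and -1.78 and -2.41 against -0.76, -0.83, -0.89, -0.90 and -0.81 at 60 days. PI arrays were above controls without overlap at the 3 times, by 2.52, 1.67 and 1.26 on average.

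The change at 3 days came from each gene of the pair, but at later times mainly from Myom2. At 14 days Myom2 was at 9.69, 10.34 and 10.46 in controls and at 11.84, 11.79, 11.05, 11.79 and 11.03 in PI arrays, while Myom1 was at 12.03, 12.10 and 12.41 against 11.91, 12.22, 11.64, 12.13 and 11.31. The PI arrays were all above controls for Myom2 and overlapped them for Myom1. At 60 days Myom1 was at 11.70 and 11.84 against 12.07, 11.98, 11.82, 12.81 and 12.11, with an effect of 0.39 that was not called.

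For the calsarcins, Myoz2 minus Myoz1 was higher in PI arrays at 3 and 14 days, by 1.60 and 1.47 on average and with no overlap, and differed by -0.01 at 60 days, where the arrays overlapped. At 3 days Myoz1 was at 12.66, 11.56 and 12.42 in controls and at 11.56, 10.71, 11.24, 10.38 and 10.44 in PI arrays, and Myoz2 at 9.37, 8.73 and 9.70 against 10.01, 9.93, 9.75, 9.15 and 8.74. Myoz1 alone was called then, as lower. At 14 days Myoz2 alone was called, as higher, and Myoz1 was at 12.63, 12.88 and 12.96 against 12.87, 12.79, 12.56, 12.96 and 12.49. At 60 days neither was called, with Myoz1 at 12.54 and 12.23 against 12.75, 12.76, 12.61, 12.32 and 12.80, and Myoz2 at 10.09 and 9.88 against 10.60, 10.41, 10.23, 9.26 and 10.66.

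Myl3 minus Mylpf sets a slow essential light chain against a fast regulatory one, so this pair is not one of isoforms. The difference between PI and control was -1.05, -1.01 and -0.80 at 3, 14 and 60 days. All PI arrays lay below controls each time. PI replicate 4, low in muscle, had the lowest value at 3 days (-7.87). Myl2, the slow regulatory light chain, had effects of -0.88, 1.57 and -0.05 at these times, against 0.11, 0.21 and 0.22 for Mylpf. Mylpf was near the top of the scale, at 14.07, 13.34 and 13.82 in 3-day controls and at 14.07, 13.91, 13.98, 13.83 and 13.48 in PI arrays. At 14 days it was at 14.05, 14.04 and 14.05 against 14.36, 14.27, 14.10, 14.30 and 14.23, all above controls but not called (effect 0.21, adjusted p = 0.598). Myl3 was at 7.71, 6.93 and 7.67 in 3-day controls and at 6.82, 6.69, 6.90, 5.96 and 6.13 in PI arrays. The Myl3 arrays did not overlap at 3 or 14 days. At 60 days Myl3 was at 7.94 and 7.68 against 7.19, 7.83, 7.38, 6.68 and 7.07, and Mylpf at 13.98 and 13.75 against 14.17, 14.10, 13.99, 14.00 and 14.18.

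Mybpc1 and Mybpc2 encode the slow and fast forms of myosin-binding protein C, and Mybpc1 minus Mybpc2 went from 2.61, 3.10 and 2.74 in 3-day controls to 0.54, 1.63, 1.10, 1.73 and 1.11 in PI arrays. At that time Mybpc1 was at 12.70, 11.32 and 12.48 in controls and at 11.60, 11.07, 11.41, 10.64 and 11.38 in PI arrays (effect -0.94, adjusted p = 0.0117). Mybpc2 was at 10.09, 8.22 and 9.74 against 11.06, 9.45, 10.31, 8.91 and 10.27 (effect 0.65, adjusted p = 0.322). Mybpc1 overlapped between the groups through the low control replicate 2. Mybpc2 overlapped through PI replicates 2 and 4 (9.45 and 8.91), which lay below control replicates 1 and 3. The difference between these genes did not overlap. At 14 and 60 days the differences overlapped, and Mybpc1, at 12.72, 12.68 and 12.93 against 12.83, 12.91, 12.51, 12.97 and 12.45 at 14 days, had an effect of -0.04. The changes of these pairs are described and were not tested.

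**Figure D4:**
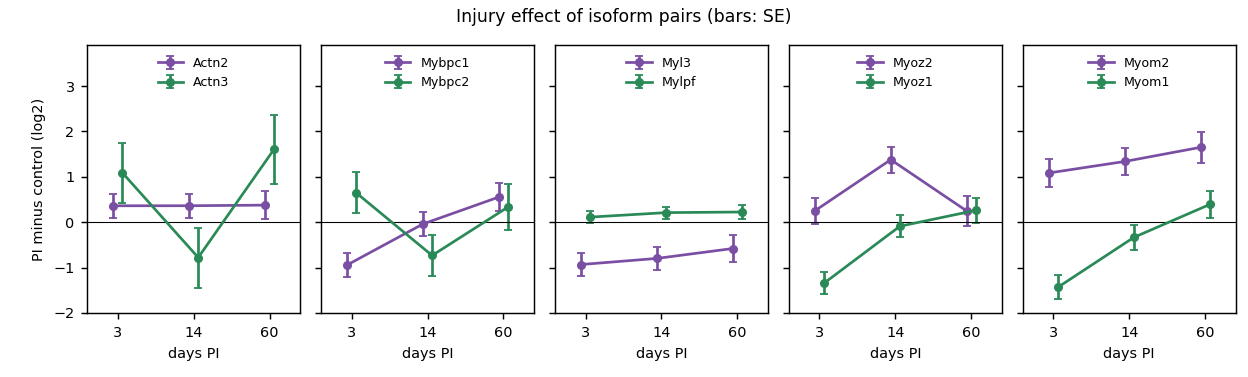
Injury effect (PI minus control, log2, bars for the SE) of 5 gene pairs at 3, 14 and 60 days PI, with the first-named gene in purple and the other in green. Myl3 and Mylpf are a slow and a fast light chain and not isoforms of each other. Myom2 lies above Myom1 at the 3 times (1.08 and -1.44 at 3 days), Myoz2 and Myoz1 meet at 60 days (0.25 and 0.26), and Actn3 has the widest bars.

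Actn2 and Actn3 encode alpha-actinins of all fibers and of fast fibers. Actn2 had effects of 0.36, 0.36 and 0.38, none called, and was at 11.82, 10.46 and 11.72 in 3-day controls and at 11.97, 11.60, 11.83, 11.15 and 11.93 in PI arrays. Actn3 was at 8.73, 6.98 and 8.48 against 9.75, 9.19, 9.17, 8.72 and 8.93 at that time, an effect of 1.09 (adjusted p = 0.249). For each gene the arrays overlapped at 3 days, with control replicate 2 the lowest. Actn2 minus Actn3 did not overlap, at 3.09, 3.48 and 3.24 in controls and at 2.21, 2.403, 2.66, 2.43 and 3.00 in PI arrays, a change of -0.73, whereas at 14 and 60 days it overlapped. Of the 42 members Actn3 had the largest spread, a residual SD within groups of 0.99 log2 against a median of 0.39 over the 42. In 14-day controls it was at 8.76, 11.36 and 11.68, and in 60-day PI arrays at 9.35, 9.76, 9.52, 11.08 and 11.90. Pvalb, which fast fibers hold, was next with 0.92 and was high in some of the same arrays, at 10.06, 12.28 and 11.84 in 14-day controls and at 10.57, 10.87, 10.52, 10.51 and 12.52 in 60-day PI arrays. Mybpc2 followed with 0.67. With such spread, effects of over 1 log2 of Actn3 and Pvalb at 60 days (1.61 and 1.33) had adjusted p of 0.546 and 0.628.

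The 13 cultures of VF fibroblasts, each from 1 rat aged 180 days and at passage 1, give the same probe sets in cells outside the tissue. The cultures were of naive or scar mucosa, or of scar mucosa with siRNA against gp46 or scramble siRNA. In 12 of the 13, between 2 and 6 members exceeded their lowest mucosa array. Scar replicate 1 had the most, with 13 such members and the highest level of any culture for 34 of the 42. Acta1 was at 13.22 there and between 6.14 and 11.90 in the other 12, and Mylpf at 13.62 against 5.61 to 12.32. Myogenin (Myog) and Myh3, markers of differentiating myoblasts, were also highest there, at 12.20 and 13.34. Myog exceeded its highest control mucosa array (8.10) in several other cultures too. These were scar replicate 3 (10.37), naive replicates 3 (9.98) and 1 (9.15), scramble replicate 2 (8.59) and gp46 siRNA replicate 2 (8.45). In the remaining cultures Myog lay between 5.43 and 7.70. Atp1b4, the member with the largest rise in PI mucosa, stayed between 3.51 and 3.94 in all 13 cultures, and Myoz3, with the largest fall, between 5.14 and 5.83. In all, 12 members spanned less than 1.5 log2 over the cultures, also Ankrd2, Fbxo32, Ky, Mybpc2, Myl2, Myl3, Pvalb, Tcap, Tmod4 and Trdn. Scar fibroblasts were not compared with naive ones here.

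**Figure D5:**
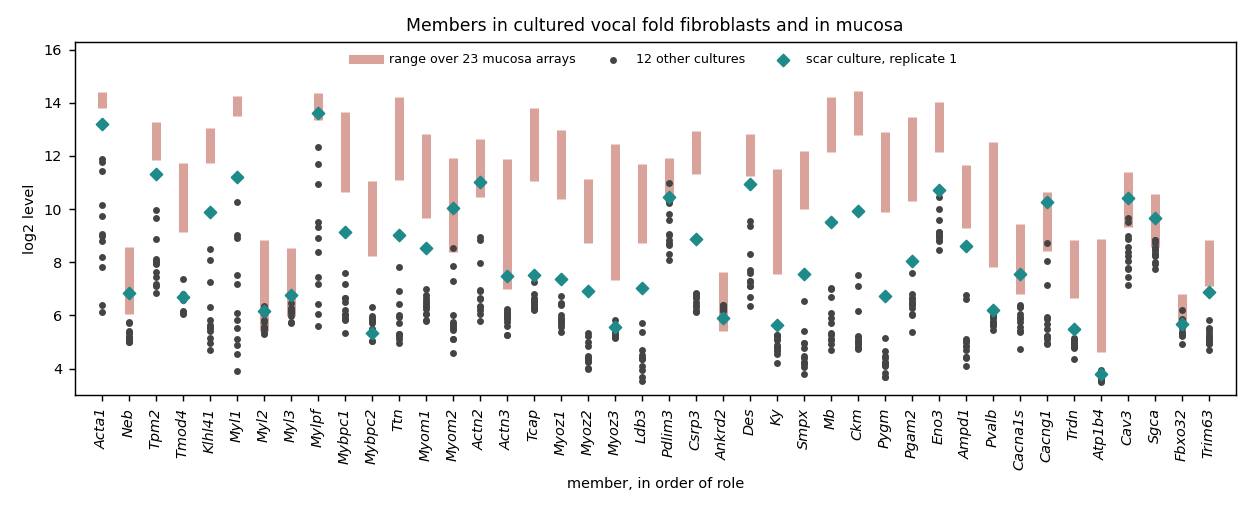
Log2 level of the 42 members in 13 fibroblast cultures (dots, with scar replicate 1 as a diamond) beside the range over the 23 mucosa arrays (red bars). Most dots lie below the bars, the diamond is the highest culture for 34 members, and Atp1b4 and Myoz3 stay low in all cultures.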

How the data were processed

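RNA of pooled vocal fold mucosae (23 arrays) and of cultured fibroblasts (13 arrays) was hybridized to Affymetrix rat genome arrays. The authors summarized the probes by RMA (the submitters' processing notes also name affy) and deposited log2 values of 31099 probe sets, between 2.72 and 14.74. Sorted values of the arrays differ by at most 0.03, so a level is relative to all RNA on that array. No array-wide depth exists, and the number of arrays limits precision. After 57 control probe sets were removed, 31042 remained, and 20826 with 1 symbol stood for 14217 genes. Probe set choice followed the stated methods.

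Mucosa arrays were fitted with limma 3.58.1 in R 4.3.3, with 6 groups in 1 fit, Benjamini-Hochberg adjustment over all genes and a threshold of 0.05. The study used the lognormal-normal model of EBarrays, and an implementation written for this work, with 20 iterations and a posterior probability over 0.95, served as an alternative. The fit was tested on simulated data. Labels state pools of rats as separate samples, so the p-values measure the spread between pools. Members and lists were chosen with earlier results of these data known, and the second muscle list in particular. Values in every array are given for the called members with the largest changes of each role class and for isoform pairs. They are also given for members of largest effect in classes without a call, and for Myl3 and Mylpf. Members with further values in the text (Mb, Acta1, Pvalb) and the marker Nppa were added after values were seen. Up to 4 called genes were named from each other muscle list, and the brightest markers of the cell type lists. Alternatives were array weights, centring, renormalization, other probe set rules, a filter on the lowest 30% of genes, fits of single comparisons, pooled controls, a prior variance with trend, a replicate block and leaving out each array, and, chosen after seeing the data, leaving out the 3 arrays that deviated most. Upstream sequences were searched on both strands in Python 3.11.15, and figures were drawn with matplotlib 3.10.9.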

Additional observations from a re-analysis of the deposited data

Results flagged for a closer look

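In groups of 5 arrays, 6 of 126 sets of values held an array far from the rest by Dixon's test, where chance gives about 1 in 20. In 60-day PI replicate 4, the array with the widest deviations over all genes, Ttn (14.22) stood above the other PI arrays, and Cav3 (9.59) and Tcap (13.22) stood below them. The others stood above their groups, namely Ckm in 14-day PI replicate 1 (14.46, against 14.43 in each of the others), Pvalb in 60-day PI replicate 5 (12.52) and Fbxo32 in 3-day PI replicate 5 (6.78).

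The injury effect differed between 14 and 3 days (limma interaction, adjusted p under 0.05) by 2.46 log2 for Myl2, 1.94 for Myoz3, 1.63 for Ky, 1.46 for Neb, 1.26 for Myoz1, 1.20 for Mb, 0.87 for Ckm and -1.21 for Ankrd2. Between 60 and 3 days it differed by 3.35 for Myoz3, 2.39 for Ky, 1.87 for Pygm, 1.83 for Myom1, 1.63 for Tmod4, 1.62 for Pgam2 and 1.61 for Myoz1. Smaller differences at 60 days were those of Mybpc1 (1.4985), Neb (1.42), Ttn (1.37), Mb (1.31), Tcap (1.31), Eno3 (1.17), Ckm (0.95), Csrp3 (-1.11) and Ankrd2 (-1.51).

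The fibroblast cultures enter no comparison of the mucosa, and in scar replicate 1 there were 13 members above their lowest mucosa array. Myog was at 12.20 there and between 5.43 and 10.37 in the other cultures.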

How the results depend on the processing

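All counts here are of members called, out of 42. At 3 days 23 were called (7 higher, 16 lower), at 14 days 5, at 60 days 0, in the difference of effects 8 (14 against 3 days) and 16 (60 against 3 days), in PI mucosa 30 (14 against 3 days) and 2 (60 against 14 days), and over control ages 0. With array weights the difference at 14 days gave 22 and control ages 4, and Klhl41 turned from 0.01 to -0.26 at 3 days (adjusted p = 0.0312). With the mean of the probe sets the difference at 14 days gave 5. Without the 30% of genes of lowest mean, 14 days gave 3 and PI mucosa 60 against 14 days gave 0. With only the arrays compared, 14 days gave 8, the difference at 60 days 10 and PI mucosa 60 against 14 days 1. With controls of the 3 ages pooled, 14 days gave 9 and 60 days 3. The lognormal-normal model gave 13 at 3 days (4 higher, 9 lower) and 2 at 60 days. Why these counts moved was not tested. Leaving out 1 array gave 18 to 24 at 3 days, with 4 to 8 higher and 11 to 20 lower, both 4 and 20 without control 3-day replicate 2. It gave 3 (without control 14-day replicate 1) to 6 at 14 days, 0 to 1 at 60 days, 3 (without control 3-day replicate 3) to 16 (without control 3-day replicate 2) for the difference at 14 days and 7 (without control 60-day replicate 2) to 19 (without control 3-day replicate 2) for that at 60 days. In PI mucosa it gave 27 to 32 and 2 to 2, and over control ages 0 to 0. Without the 3 arrays that deviated most, chosen after seeing the data, 25 were called at 3 days and 7 at 14 days. Replicate numbers did not pair the samples, as correlations of same-numbered deviations ran from -0.13 to 0.31, and with the replicate block the counts were again 23, 5, 0, 8, 16, 30, 2 and 0. Only 2 control arrays limit what could be called at 60 days.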
